A study of Mus musculus with 4 samples.

Results

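Among the 4 single-cell libraries of mouse embryonic stem cells (mESC) in the series, 1259 genes of 12711 tested (9.9%) separated libraries 1 and 3 from libraries 2 and 4. A gene was taken when both libraries of one pair lay at least 1.5-fold above both libraries of the other, with at least 200 counts in a library. Levels are counts of unique molecular identifiers (UMIs, which mark single captured transcripts) per 1000000 UMIs of the kept cells (CPM). Of the genes with enough counts, 497 (3.91%) were higher in libraries 1 and 3 and 762 (5.99%) were higher in libraries 2 and 4. Such genes are called set apart here, and their separation is the lowest level of the higher pair over the highest level of the other pair. These values chose the genes, so they are a description without a test. At these shares a list of 10 genes would hold about 1 such gene, so counts of 0 to 2 in short lists are given as values only. A run of 4 values gives libraries 1 to 4 in order.

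The labels describe 2 WT samples of E14tg2a.4, a male mESC line, and 2 Srrm2 hKO samples, which come from the gene-trap line CG0630 of the same background with a heterozygous truncation of Srrm2. The mutant is thus a single trapped line with no other mutant line among the samples, and by the study's methods both lines were frozen at different passages. All cells were grown with LIF. The labels name a final serum-free phase of 24 h or 72 h without saying which sample had which, and the single-cell methods of the study name another length. No source used here ties a library number to a sample, so genotype, growth time and experiment cannot be told apart for any pair of libraries. Every difference is therefore one between single cultures, and no p-value was computed. The barcodes of the matrix numbered 9535, 11736, 9697 and 10174 in libraries 1 to 4, and a filter on UMIs, genes and mitochondrial share kept 31989 of 41142. Of 8 embryonic stem cell markers, 8 were above 1 CPM in every library.

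Mouse ESCs self-renew in a naive state held by factors such as Nanog, Klf4 and Tbx3. On leaving it they pass through a formative state, in which Otx2, Dnmt3b and Fgf5 are induced before lineage genes. Cells short of amino acids or with stressed protein synthesis use the integrated stress response, in which phosphorylation of eIF2 lowers translation while the transcription factor ATF4 is made. ATF4 pairs with C/EBP family proteins on composite elements and induces genes for amino acid synthesis and transport, as well as Ddit3 and Trib3.

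Since several genes of the integrated stress response were higher in libraries 1 and 3, promoter sequences were read for the core of the composite element, TGATGNAA, searched on both strands in RefSeq windows (GRCm38.p6) from 250 bases before to 50 bases after each gene start. The motif was picked after the gene values, and other motifs, had been looked at. For 4 genes that were set apart and hold the core, a stretch of 60 bases upstream of the start is shown to place it in capitals. Nupr1 and Asns belong to the stress list, while Pycr1 and Jdp2 come from outside it and are shown because they match. Each is written 5′ to 3′ on the strand of the gene.
Nupr1, chr7:126625547-126625606, minus strand: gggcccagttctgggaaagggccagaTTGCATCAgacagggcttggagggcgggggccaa
Asns, chr6:7693210-7693269, minus strand: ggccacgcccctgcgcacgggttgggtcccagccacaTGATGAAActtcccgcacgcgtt
Pycr1, chr11:120643818-120643877, minus strand: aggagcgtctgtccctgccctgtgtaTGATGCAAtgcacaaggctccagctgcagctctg
Jdp2, chr12:85599356-85599415, plus strand: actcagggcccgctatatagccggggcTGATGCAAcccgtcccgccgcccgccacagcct
The core of Nupr1 lies on the opposite strand and begins at position -110, and those of Asns, Pycr1 and Jdp2 begin at -23, -103 and -33. Jdp2 has the core in 1 of its 3 windows. The window of Trib3 holds the letters downstream of the start. Among the other genes set apart and looked at, the windows of Ddit3, Atf5, Slc3a2, Amt, Gpt2 and Apip hold none, and Cth, Cars and Mymx have no window. Of the stress genes not set apart, Atf4, Cebpb, Sesn2, Ddit4 and Stc2 hold none, and Slc7a5 and Slc7a3 have no window. Chac1, which was not set apart, has a match at -193, and Vldlr, also not set apart, and Slc7a11, which had too few counts, hold a match as well. Among all windows 3.97% hold the core, and of the 9885 tested genes with a window 2.58% do. Windows were found for 77.06% of the genes higher in libraries 1 and 3 and 73.1% of those higher in libraries 2 and 4, under a minimum of 80%, so a comparison of shares between the groups is void.

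Many genes of the integrated stress response were higher in libraries 1 and 3. Of 15 tested members 6 were set apart in that direction, compared with 3.91% over all genes tested, and 0 in the other. By some amount 12 of 15 were above both other libraries, compared with 3152 of 12711 (24.8%) over all genes tested. The list was chosen with earlier results of these data known, so these comparisons describe it and test nothing. The median log2 ratio of library 2 to library 1 was -1.11 over the list and 0.14 over all genes, and that of library 4 to library 3 was -0.54 against 0.06. Summed over the list, the level was 1443 CPM in library 1 and 1038 CPM in library 3, compared with 621 and 633 CPM in libraries 2 and 4. Without Asns, the most abundant member, the sums were 936 and 717 CPM against 468 and 516 CPM.

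Nupr1, a small stress-induced regulator of transcription, was at 178 CPM in library 1 (95% Poisson interval 176 to 180) and at 73.2 CPM in library 3. In the other pair it was at 15.1 CPM (library 2) and 11.5 CPM (library 4). The lower library of the pair, library 3, was 4.83-fold above library 2 (4.64 to 5.03). Its gene (ENSMUSG00000030717) spans positions 126623249 to 126630861 on the minus strand of chromosome 7 (GRCm38) in GENCODE M21. The RefSeq start used for its promoter stretch lies inside this span, and position -110 refers to that RefSeq start. When each cell was thinned to 5000 UMIs, a Nupr1 UMI was present in 52.1% and 26.2% of cells of libraries 1 and 3 and in 6.17% and 4.93% of cells of libraries 2 and 4. Without thinning the shares were 83.7% and 59.3% against 18.6% and 16.6%. The cultures hold no cells that should lack the gene, so the share that free RNA gives could not be measured.

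Ddit3, which encodes the stress transcription factor CHOP, was at 27.0, 5.50, 19.3 and 6.46 CPM in the 4 libraries. Its separation was 2.98-fold (2.78 to 3.19). Atf5, another stress-regulated factor of the same class, was at 16.8, 6.73, 17.4 and 6.45 CPM and was nearly equal within each pair. Trib3, a pseudokinase that acts downstream of Atf4 and Ddit3, was at 32.0, 10.7, 23.5 and 13.2 CPM.

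Asns, which makes asparagine, was the most abundant of the set at 507, 154, 321 and 118 CPM in libraries 1 to 4. Its separation was 2.09-fold (2.06 to 2.12). Slc3a2, the heavy chain shared by several amino acid transporters, lay closest to the limit of those set apart at 245, 137, 225 and 144 CPM. Atf4 itself was at 191, 88.7, 152 and 105 CPM, a separation of 1.45-fold, and fell just outside the rule. Chac1, which degrades glutathione, had a separation of 1.01-fold (0.96 to 1.07), since library 3 (13.9 CPM) and library 4 (13.7 CPM) were almost equal. In Slc7a3, Slc7a5 and Ddit4 the pairs overlapped, with Ddit4 highest in library 4 at 38.0 CPM.

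**Figure D1:**
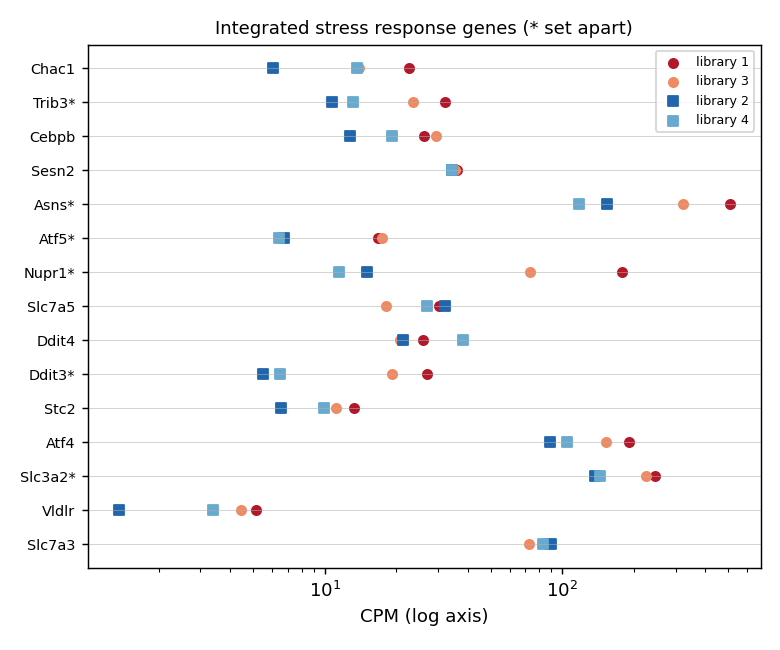
Levels of the 15 tested genes of the integrated stress response in each library, in CPM on a log axis; circles are libraries 1 and 3, squares libraries 2 and 4, and an asterisk marks genes set apart. Nupr1 at 178 and 73.2 CPM in libraries 1 and 3 against 15.1 and 11.5 CPM in libraries 2 and 4 is the widest, and Chac1 shows libraries 3 and 4 together.

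Genes of amino acid metabolism were set apart in small numbers. Of 15 tested genes in the list for serine, glycine and threonine metabolism 2 were set apart, both higher in libraries 1 and 3. Pycr1, which the list holds although it catalyses the last step of proline synthesis, was at 36.4, 13.6, 24.1 and 11.9 CPM. Amt, part of the glycine cleavage system, was at 66.6, 29.2, 50.5 and 30.3 CPM. Psat1, an enzyme of serine synthesis, kept the order of the pairs with a separation of 1.35-fold, while Phgdh, the first step, ranged from 108 to 135 CPM without separating them. Chosen after their values were seen, Cth, which makes cysteine from cystathionine, was at 145, 44.2, 103 and 40.5 CPM, and the cysteinyl-tRNA synthetase gene Cars at 139, 68.4, 110 and 70.0 CPM. The 4 other tRNA synthetase genes looked at with them, Aars, Sars, Gars and Nars, had separations from 1.06-fold (Nars) to 1.41-fold (Aars) and were not set apart, and neither was Pck2, a mitochondrial enzyme that makes phosphoenolpyruvate, at 1.49-fold.

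Few genes on a list for endoplasmic reticulum stress were set apart. Of 11 tested genes of the unfolded protein response 2 were higher in libraries 2 and 4, compared with 5.99% over all genes tested, and 0 in libraries 1 and 3. By any amount 8 of 11 lay above in libraries 2 and 4, compared with 40%, and 1 in libraries 1 and 3, compared with 24.8%. The median log2 ratio was 0.40 for library 2 to library 1 and 0.34 for library 4 to library 3, against 0.14 and 0.06 over all genes. Pdia6, a disulfide isomerase, was at 154, 281, 159 and 271 CPM, and Pdia4, a related enzyme, at 41.8, 75.8, 45.7 and 72.6 CPM. Hspa5, the main chaperone of the compartment, was at 177, 271, 210 and 262 CPM in the 4 libraries and kept the same order at a smaller separation. Of 11 heat shock genes 0 were set apart in either direction.

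The genes with the largest separations toward libraries 1 and 3 were mostly low in level. Over all 497 genes the median of the highest level was 7.88 CPM, compared with 6.37 CPM over the 762 genes of the other direction and 16.9 CPM over all genes tested. The largest separation, 14.4-fold, was that of the predicted gene 1810020O05Rik. With predicted genes left out, Tarm1, an immunoreceptor of myeloid cells, led with 3.0, 0.230, 2.39 and 0.259 CPM, a separation of 9.24-fold (6.78 to 12.9). Behind it came Dclk3, a doublecortin-like kinase, at 1.74, 0.190, 1.49 and 0.213 CPM and Ppp1r14d, an inhibitor subunit of protein phosphatase 1, at 16.3, 1.26, 8.99 and 1.33 CPM. The other top genes were Catip, Hist2h3c2, Tmem117, Sox1, Cd37, Camk2n1, Nupr1, Meiob, Myo1f, Grin2c, Jdp2 and Hist3h2a, with separations from 4.34-fold to 6.25-fold. Among them Sox1, a transcription factor of neural progenitors, stayed low at 1.04, 0.190, 1.91 and 0.201 CPM, and Jdp2, a repressor of the AP-1 family, was at 7.89, 1.47, 7.62 and 1.73 CPM.

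Other listed genes higher in libraries 1 and 3 fell into small groups. Of 16 naive pluripotency genes, 2 were set apart in this direction, compared with 3.91% over all genes tested, and 0 in the other. By any amount 6 lay above in libraries 1 and 3, compared with 24.8%, and 1 in libraries 2 and 4, compared with 40%. The median log2 ratio over the list was -0.31 for library 2 to library 1 and -0.72 for library 4 to library 3, against 0.14 and 0.06 over all genes. Tbx3, a naive transcription factor, was at 75.2, 10.9, 35.2 and 3.76 CPM, and Nr0b1, a nuclear receptor active in ESCs, at 146, 70.6, 107 and 31.8 CPM. Klf4, at 167, 105, 107 and 48.5 CPM, and Nanog, at 154, 130, 103 and 61.9 CPM, did not meet the rule, since libraries 2 and 3 were close for Klf4 and crossed for Nanog. Txnip, an inhibitor of thioredoxin that responds to glucose, was at 124, 37.0, 96.2 and 40.2 CPM. Of 20 tested germline genes, 3 were set apart in this direction, compared with 3.91% over all genes tested, and Sycp3, a component of the synaptonemal complex, was the most abundant of them at 234, 84.8, 170 and 91.0 CPM.

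Formative genes were set apart on the other side. Of 15 tested members 7 were higher in libraries 2 and 4, compared with 5.99% over all genes tested, and 0 in libraries 1 and 3. By any amount 9 of 15 lay above in libraries 2 and 4, compared with 40%, and 2 in libraries 1 and 3, compared with 24.8%. This list too was chosen with earlier results of these data known. Over the list the median log2 ratio of library 2 to library 1 was 1.51 and that of library 4 to library 3 was 1.06. The summed level was 360, 980, 561 and 1351 CPM in libraries 1 to 4. Without Dnmt3b it was 281, 587, 415 and 765 CPM.

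Otx2, a transcription factor that drives the exit from the naive state, was at 25.1 CPM (24.3 to 25.9) and 24.4 CPM (23.7 to 25.2) in libraries 1 and 3 and at 90.4 CPM (89.1 to 91.7) and 123 CPM (121 to 124) in libraries 2 and 4. The intervals of libraries 1 and 3 overlapped, and library 2 was 3.60-fold (3.48 to 3.73) above library 1. At 5000 UMIs per cell 10.8%, 31.8%, 10.1% and 40.6% of cells of libraries 1 to 4 had an Otx2 UMI, and without thinning 31.6%, 68.2%, 28.9% and 75.7% did.

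Fgf5, a growth factor of the formative epiblast, was at 0.869, 8.13, 1.76 and 14.8 CPM, and Sall2, a zinc finger factor, at 0.869, 9.06, 2.83 and 16.1 CPM. Dnmt3b, the de novo DNA methyltransferase, was at 79.5, 393, 146 and 586 CPM, a separation of 2.69-fold. Lef1, a factor that relays Wnt signals, was at 5.66, 30.6, 10.9 and 33.6 CPM. In these genes library 3 lay above library 1 and library 4 above library 2, so that each pair held a lower and a higher library.

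Grhl2, an epithelial factor, was at 9.06, 25.9, 12.4 and 26.1 CPM and Etv5, an ERK-responsive factor, at 72.6, 123, 76.2 and 116 CPM. Pou3f1 (16.4, 77.7, 61.8 and 168 CPM) and Dnmt3a (19.8, 59.6, 42.2 and 87.8 CPM) had the same order but smaller separations of 1.26-fold and 1.41-fold. Etv4, Zic2 and Cdh2 were not higher in both libraries 2 and 4, with Etv4 lower there at 19.3 and 23.5 CPM than in libraries 1 and 3 at 25.9 and 37.4 CPM.

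**Figure D2:**
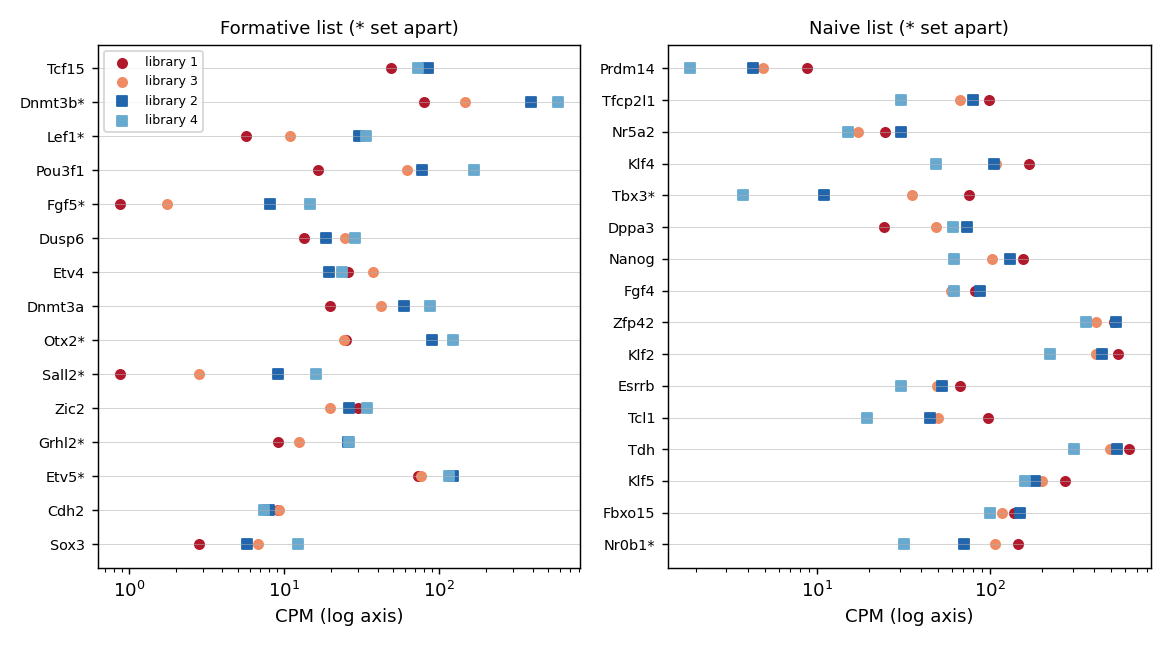
Levels of the formative list (left) and the naive list (right) in each library, in CPM on a log axis; circles are libraries 1 and 3, squares libraries 2 and 4, and an asterisk marks genes set apart. Otx2 shows libraries 1 and 3 together near 25 CPM, whereas most naive genes, Tbx3 and Nr0b1 aside, overlap between the pairs.

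The list of DNA methylation genes had 2 of 11 tested members set apart, Dnmt3b and Hells, a chromatin remodeler needed for DNA methylation, at 335, 578, 352 and 708 CPM. Tdg and Usp7 stopped just short at 1.47-fold each. Targets and regulators of signalling pathways were set apart in small numbers and in both directions. The Wnt list had 1 of 14 tested genes higher in libraries 1 and 3, Cdx1, and 2 higher in libraries 2 and 4, Lef1 and Tcf7. The Nodal list had 1 of 12 higher in libraries 1 and 3, Pmepa1, a feedback inhibitor, at 35.0, 18.3, 41.9 and 15.8 CPM, and 2 the other way, Cfc1 and Skil. In the LIF and STAT3 list Pim1, a kinase, was higher in libraries 1 and 3 at 94.5, 59.4, 101 and 58.3 CPM and Sgk1, another kinase, in libraries 2 and 4 at 76.7, 163, 65.7 and 119.8 CPM, out of 15 tested. The FGF and ERK list had 2 of 16 and the Notch list 1 of 11, all higher in libraries 2 and 4. Of 10 tested BMP targets 3 were higher in libraries 2 and 4, compared with 5.99% over all genes tested, and 0 in libraries 1 and 3. By any amount 4 lay above in libraries 2 and 4 and 3 in libraries 1 and 3, so the list as a whole went both ways. Id2, an inhibitor of bHLH factors, was at 8.57, 37.8, 22.0 and 60.1 CPM and Id3 at 21.8, 56.7, 36.6 and 68.7 CPM. Of 12 Myc genes and nucleolar factors 3 were higher in libraries 2 and 4, compared with the same 5.99%, and Mycn was at 82.8, 159, 91.7 and 150 CPM.

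The largest separations toward libraries 2 and 4 began with Lypd2, a GPI-anchored protein of the LY6 family. It was at 7.79 and 9.55 CPM in libraries 2 and 4 and at 0.468 and 0.476 CPM in libraries 1 and 3, a separation of 16.4-fold (13.1 to 20.7). Platr5, a long noncoding RNA named for its association with pluripotency, was at 0.342, 4.39, 0.360 and 3.90 CPM. Fgf15, a secreted growth factor, was at 2.63, 16.7, 2.34 and 15.2 CPM.

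For these 3 genes the libraries of each pair were close together. The others among the top 15 were Dmkn, Miat, Alox5ap, Olfr889, Plch2, Cfc1, AY036118, Tnni1, Fgf5, Slc24a1, Magel2 and Pik3cd, at 4.31-fold to 8.68-fold. Cfc1, a co-receptor of Nodal, was at 0.677, 4.2, 0.719 and 3.67 CPM. Alox5ap, which serves leukotriene synthesis, was at 0.959, 8.72, 1.15 and 6.46 CPM.

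Some ribosomal RNA and mitochondrial transcripts also followed the pairs. AY036118, which overlaps the ribosomal RNA repeat on chromosome 17, was at 18.5, 93.4, 18.7 and 96.3 CPM, and Gm42418 in the same region, chosen after its values were seen, was at 678, 1277, 604 and 1308 CPM. Reads from ribosomal RNA can be assigned to either gene, so their levels are uncertain as gene expression. Of 13 mitochondrially encoded genes 2 were set apart, mt-Atp8 at 29.3, 71.3, 36.9 and 90.4 CPM and mt-Nd6 at 19.5, 49.3, 22.0 and 47.9 CPM. mt-Co3, by contrast, was higher in libraries 1 and 3 at 12887 and 9588 CPM than in libraries 2 and 4 at 7611 and 6576 CPM. mt-Atp8 overlaps mt-Atp6 in the genome, so reads of the shared part can be split between them.

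Histone genes set apart were mostly higher in libraries 2 and 4, by 11 to 3 here and 7 to 3 with TMM factors. Of 52 tested, 11 were higher in libraries 2 and 4, compared with 5.99% over all genes tested, and 3 in libraries 1 and 3, compared with 3.91%. With each cell thinned to 5000 UMIs, 32 were tested, and 10 were set apart toward libraries 2 and 4 and 0 toward libraries 1 and 3. Over all 9765 genes tested on thinned cells 463 and 304 were. In the barcodes that the cell filter removed 0 of 10 tested histone genes were set apart, compared with 396 and 144 of 6061 genes. Summed over the list, the level was 1352, 1795, 1777 and 3121 CPM in libraries 1 to 4, with libraries 2 and 3 almost equal. Without Hist1h2ap the sum was 897, 1017, 876 and 1249 CPM, with libraries 2 and 4 both above libraries 1 and 3. Most replication-dependent histone messages end in a stem-loop in place of a poly(A) tail, and many of these genes are near-identical copies, so counts of single members are uncertain. Hist1h1e, a linker histone, was at 23.4, 64.7, 43.0 and 92.7 CPM, and Hist2h2aa1 at 3.78, 13.0, 6.30 and 24.0 CPM. Hist2h3c2, at 2.33, 0.185, 1.11 and 0.109 CPM, and Hist3h2a, at 3.61, 0.759, 3.79 and 0.833 CPM, ran the other way. The most abundant member, Hist1h2ap, was not set apart at 455, 778, 900 and 1872 CPM. Of the S and G2/M phase lists, with 14 tested genes each, 0 genes were set apart.

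**Figure D3:**
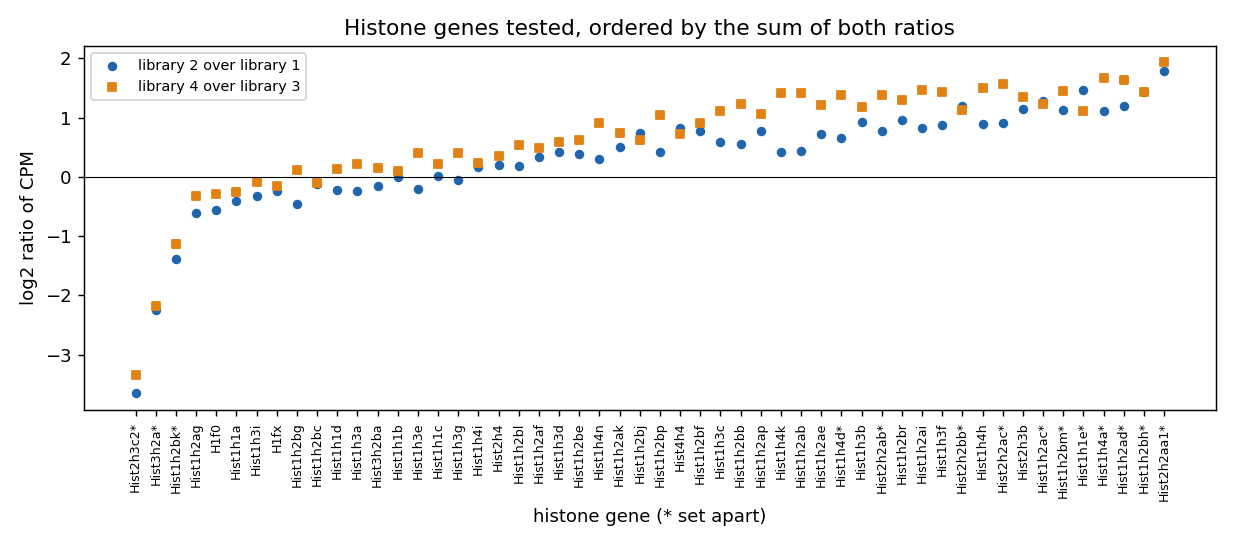
Log2 ratios of library 2 to library 1 (circles) and of library 4 to library 3 (squares) for the 52 tested histone genes, ordered by the sum of both; an asterisk marks genes set apart. Most ratios lie above 0, with Hist2h3c2, Hist3h2a and Hist1h2bk far below.

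Srrm2, the gene the mutant line carries a trap in, did not separate these pairs. Its levels were 387 and 238 CPM in libraries 1 and 3 and 533 and 356 CPM in libraries 2 and 4. Library 1 lay above library 4, so neither pair was above the other. Of 22 tested genes for SR proteins and speckle components 0 were set apart, compared with 9.9% over all genes tested. Srsf4, at 42.7, 66.0, 42.7 and 64.1 CPM, was just under the limit and Son, a speckle scaffold, was at 1.46-fold. By any amount 14 of 22 lay above in libraries 2 and 4, compared with 40%, and 1 in libraries 1 and 3, compared with 24.8%. Both libraries 1 and 2 lay above libraries 3 and 4 in Srrm2. Y-linked Eif2s3y had the same order, at 99.97 and 80.7 CPM in libraries 1 and 2 against 27.9 and 24.3 CPM in libraries 3 and 4, and no library is assigned to a genotype from either gene.

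Across all tested genes the ratio of library 2 to library 1 and the ratio of library 4 to library 3 were correlated with Pearson's r of 0.80 over 12711 genes. This describes 4 libraries that were aggregated together, and genes are not independent replicates. Within the pairs, the genes set apart differed somewhat more than all genes tested. They were also lower in level, with medians of the highest level of 7.88 and 6.37 CPM against 16.9 CPM. The part of counting error in this was not tested. The median absolute log2 ratio of library 1 to library 3 was 0.25 for genes higher in libraries 1 and 3 and 0.20 over all genes tested, and that of library 2 to library 4 was 0.23 against 0.17. Of the 497 genes 347 were higher in library 1 than in library 3, compared with 4934 of all 12711. Of the 762 genes 252 were higher in library 2 than in library 4, compared with 6098 of 12711.

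**Figure D4:**
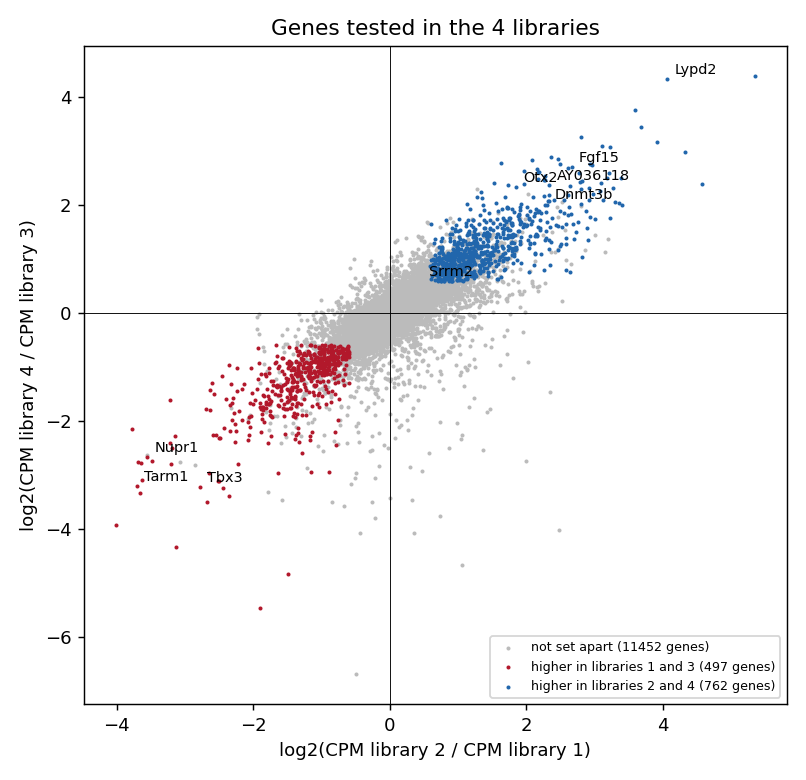
Each of the 12711 tested genes by the log2 ratio of library 2 to library 1 (horizontal) and of library 4 to library 3 (vertical); red marks the 497 genes higher in libraries 1 and 3 and blue the 762 higher in libraries 2 and 4. Lypd2 lies at the upper right, Nupr1, Tarm1 and Tbx3 at the lower left, and Srrm2 near the blue edge because both its ratios are positive although the pairs overlap.

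The separations were mostly modest. The median was 1.81-fold for the 497 genes and 1.75-fold for the 762, and 176 and 214 of them reached 2-fold. At the limit, Pxmp2, Inka1 and Wwtr1 were just inside, at 1.502-fold to 1.504-fold toward libraries 1 and 3, while Gpx4, Dnajc22 and Atp1b1 were just outside at 1.498-fold to 1.499-fold. Toward libraries 2 and 4 Nup153, Rab25 and Txlna were just inside and Bcorl1, Tfdp1 and Raet1e just outside.

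The genes higher in libraries 1 and 3 had shorter transcripts, with a median of 2250 bases for the longest annotated transcript, compared with 3530 bases for those higher in libraries 2 and 4 and 3280.5 bases over all genes tested. Their GC contents were alike, with medians of 51.1%, 51.7% and 49.7%.

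Technical measures differed by the same pairs. The filter kept 85.1% and 81.4% of barcodes in libraries 1 and 3 but 72.5% and 73.4% in libraries 2 and 4, and the median kept cell had 18378 and 19405 UMIs against 21898 and 21438. Mitochondrial genes took 5.30% and 4.38% of UMIs in libraries 1 and 3 and 4.09% and 3.47% in libraries 2 and 4. The part of these measures in the results was not tested. Kept barcodes shared between libraries numbered 11 to 26 per pair of libraries. In sums over cells, fewer cells of a type and less RNA per cell cannot be told apart. Summed markers of other cell types were low, at 0.213 to 1.22 CPM for two-cell-like cells, 4.06 to 8.01 for primitive streak, 10.5 to 12.1 for primitive endoderm, 6.14 to 22.7 for fibroblasts and 37.0 to 56.6 for trophectoderm. The neural list, at 76.4 to 134 CPM, had 7 tested genes. Of these 1, Sox1, was set apart toward libraries 1 and 3, compared with 3.91% over all genes tested. Toward libraries 2 and 4, 3 were, Map2, Hes5 and Elavl3, compared with 5.99%. By any amount 2 lay above in libraries 1 and 3 and 3 in libraries 2 and 4. The median log2 ratio was 1.18 for library 2 to library 1 and 0.79 for library 4 to library 3, against 0.14 and 0.06 over all genes. Of the other lists, Eomes, held by both the primitive streak and the trophectoderm list, was set apart toward libraries 2 and 4 at 1.08, 2.29, 1.51 and 2.76 CPM, and so was the fibroblast marker Thy1 at 1.5, 4.8, 1.16 and 5.14 CPM. Their lists did not follow them, since the median log2 ratio of library 4 to library 3 was -0.62 over the 4 tested primitive streak genes, -0.17 over the 6 of trophectoderm and -2.41 over the 6 of fibroblasts, and that of library 2 to library 1 was 1.01, 0.18 and -0.49.

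The scale of the counts set the balance of the 2 directions. Scaled by the UMI totals, 39.5% of the genes set apart were higher in libraries 1 and 3. With TMM factors the counts were 657 and 587, or 52.8% higher in libraries 1 and 3, and with DESeq2 size factors 662 and 579, or 53.3%. The median log2 ratio of library 2 to library 1 over all tested genes moved from 0.14 to -0.01 with TMM factors. Genes above by any amount went from 3152 to 4086 in libraries 1 and 3 and from 5080 to 3911 in libraries 2 and 4. Under TMM factors 8 of 15 stress response genes were higher in libraries 1 and 3, compared with 657 of 12711 over all genes tested. Under the same factors 6 of 15 formative genes and 7 of 52 histone genes were higher in libraries 2 and 4, compared with 587 of 12711.

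Barcodes that the filter had removed gave a further look at the same genes in cells the rule did not use. Only 95 of the 497 genes and 232 of the 762 had enough counts there. Of these, 72 and 167 met the 1.5-fold rule again. A gene could reach the minimum through the pair in which it was high, so these counts support nothing about the members as a whole. Nupr1 was at 127, 13.2, 59.95 and 10.6 CPM in the removed barcodes of libraries 1 to 4, and Otx2 at 17.6, 78.1, 23.0 and 129 CPM. These barcodes come from the same 4 cultures and may hold RNA of the kept cells, so they are not replicates.

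Cells of every library were also split at that library's own median share of UMIs in the naive list. The naive list was at 3728, 3380, 3333 and 2509 CPM in the upper parts and at 2398, 1704, 1345 and 480 CPM in the lower parts of libraries 1 to 4, so the parts were not matched between libraries. The part of the mix of cells in the results was not tested. The parts hold the cells whose sums chose the genes, so a separation within them is no separate support. Of 15 stress response genes 10 were set apart toward libraries 1 and 3 in the cells with the higher share, compared with 475 of 11001 genes tested there. In those with the lower share 6 were, compared with 373 of 11678. Nupr1 was at 197, 18.7, 90.2 and 13.4 CPM in the cells with the higher share and at 160, 11.6, 58.2 and 9.5 CPM in those with the lower share and did not overlap between the pairs in either. Otx2 was at 23.7, 61.1, 20.04 and 108 CPM in the former and 26.4, 119.8, 28.3 and 138 CPM in the latter. Fgf5 differed widely between them, at 0.148, 0.647, 0.447 and 3.36 CPM against 1.55, 15.7, 2.91 and 26.5 CPM. In the more naive cells its log2 separation was 0.53, under the limit, so Fgf5 was not set apart there. Magel2, with 27, 179, 35 and 256 UMIs in all kept cells of libraries 1 to 4, had too few counts there for the rule. Its log2 separation of 0.50 there rests on few UMIs. Other top genes stayed above the fold limit but moved by over 1.5 times. In the more naive cells the log2 separation went from 2.14 to 1.26 for Jdp2, from 2.31 to 1.67 for Camk2n1, from 3.21 to 3.99 for Tarm1, from 2.15 to 3.05 for Grin2c and from 3.12 to 4.12 for Dmkn. In the less naive cells it was lower, at 0.85 for Tnni1 (2.22 in all cells), 1.27 for Cfc1 (2.35), 1.33 for Grin2c, 2.39 for Tarm1, 1.99 for Ppp1r14d (2.76) and 2.03 for Catip (2.64). Several of these separations rest on few UMIs, and the part of counting error in the shifts was not tested. Over all kept cells of libraries 1 to 4 Dmkn had 14, 252, 25 and 226 UMIs and Grin2c 239, 21, 88 and 20. Tnni1 had 29, 262, 28 and 141, and Tarm1 had 46 and 45 in libraries 2 and 4. Of the 762 genes higher in libraries 2 and 4, 363 (47.6%) were higher in the less naive cells of all 4 libraries, compared with 39.4% of all tested genes outside the naive list. Of the 495 genes outside that list higher in libraries 1 and 3, 177 (35.8%) were higher in the more naive cells of all 4 libraries, compared with 20.3%.

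**Figure D5:**
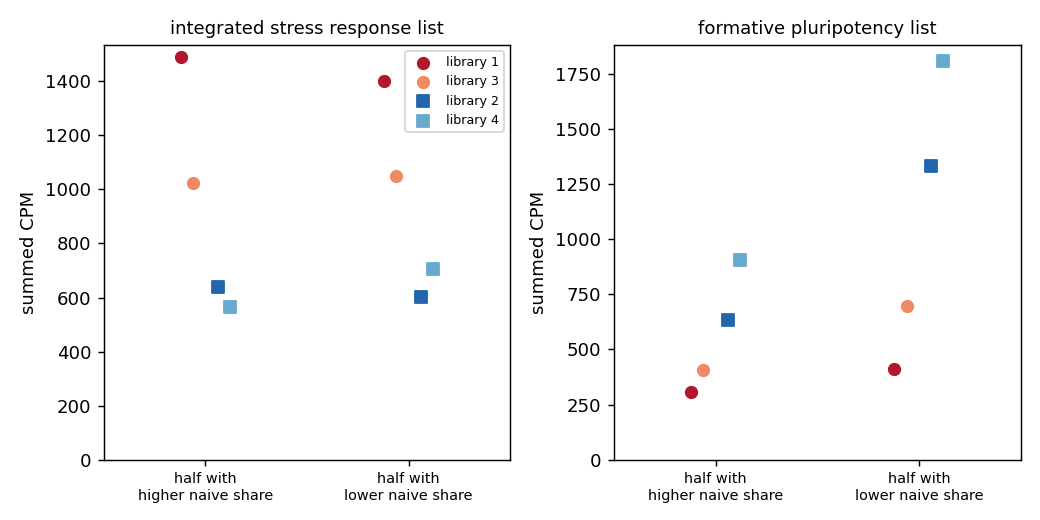
Summed CPM of the integrated stress response list (left) and the formative list (right) in the cells of each library above or below its median share of naive transcripts; circles are libraries 1 and 3, squares libraries 2 and 4, and the vertical axes start at 0. Libraries 1 and 3 were above libraries 2 and 4 for the stress list in both subsets and below them for the formative list in both subsets. Both subsets are parts of the cells whose sums chose the genes.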

How the data were processed

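The 4 mESC samples were profiled by droplet sequencing of transcript ends. The authors deposited raw UMI counts per gene and barcode, made with Cell Ranger 6.1.2 on mm10 and joined with its aggregation step, which evens read depth between libraries. From these counts, cells were kept when UMIs and genes each reached their library's mean minus 1 SD and mitochondrial UMIs were at most 10%. No doublet caller was run and no upper limit was set, and an alternative left out cells above 2 times the median UMIs of their library. Counts were summed per library (166839268 to 200180473 UMIs) and scaled to CPM. Separation is the lowest level of the higher pair over the highest level of the other, and a count of 0 was set to 3 counts. Intervals are 95% Poisson or exact binomial intervals for ratios and cover counting error only. The rule was tested on simulated counts that held counting error but no other difference within a pair. Alternatives used DESeq2 1.42.0 and edgeR 4.0.16 (R 4.3.3) for scaling only. Named genes are the 15 largest separations in each direction without predicted genes (Gm names or names ending in Rik), listed genes, Srrm2, and 3 genes on each side of the limit. Members and lists were chosen with earlier results of these data known. Gene positions come from GENCODE M21. Without a link from library to sample, an edgeR test between genotypes was not run.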

Additional observations from a re-analysis of the deposited data

How the results depend on the processing

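No paired analysis was possible because no source ties the library numbers to the replicate numbers of the labels. Written as genes higher in libraries 1 and 3 and genes higher in libraries 2 and 4, counts moved by over 1.5 times with other limits, to 1061 and 1850 without a minimum of counts, 277 and 411 with at least 1000 counts, 1175 and 1979 at a smaller fold limit, and 176 and 214 at a fold of 2. With at least 50 counts 1156 genes were higher in libraries 2 and 4. Thinning each cell to 5000 UMIs gave 304 and 463, with 9765 genes tested. The removed barcodes alone gave 144 and 396, with 6061 genes tested. Leaving out 1 library gave 793 to 937 and 944 to 2012, the rule then needing 1 library fewer. Without library 1 the counts were 897 and 944, without library 2 937 and 1508, without library 3 905 and 2012, and without library 4 793 and 1007. All other alternatives left the counts within 1.5 times, including cells of 15000 to 25000 UMIs, a range chosen after seeing the data (431 and 669). Of 390 values for the 30 top genes 0 reversed and 86 left the counting interval, and the pairs overlapped for Grin2c in the removed barcodes (log2 separation -0.68), where Dmkn was under the limit (0.49). In cells without a Krt8 or Krt18 UMI the log2 separation went from 2.14 to 1.32 for Jdp2 and from 2.31 to 1.69 for Camk2n1. In the same cells 10 of 15 stress response genes were set apart toward libraries 1 and 3, compared with 503 of 11724 genes tested there. Thinning to 5000 UMIs moved the log2 separation of Hist2h3c2 from 2.58 to 3.24.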

Other observations

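A few genes of the oxygen response and of glycolysis were set apart. Of 14 tested hypoxia genes 2 were higher in libraries 2 and 4 and 1 in libraries 1 and 3, compared with 5.99% and 3.91% over all genes tested, and 10 of 14 lay above in libraries 2 and 4 by any amount, compared with 40%. Egln3, a prolyl hydroxylase that senses oxygen, was at 6.76, 15.3, 5.26 and 20.02 CPM in libraries 1 to 4, while Vegfa, the vascular growth factor, ran the other way at 17.1, 4.16, 12.1 and 6.01 CPM. Of 19 glycolysis genes 2 were set apart, both toward libraries 2 and 4, compared with 5.99% of all genes, and 13 of 19 lay above there by any amount, compared with 40%. In libraries 1 and 3, 5 of 19 did, compared with 24.8%. The summed level, at 10537, 10081, 9820 and 10413 CPM, overlapped between the pairs. One of the 2 set apart, the lactate exporter Slc16a3, was at 28.0, 56.4, 34.3 and 90.5 CPM.

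Ribosomal protein genes were seldom set apart, compared with 9.9% over all genes tested. Of 83 tested cytosolic ribosomal protein genes 1 was set apart, Rpl22l1, at 436, 747, 478 and 837 CPM. The mitochondrial ribosomal proteins had 0 of 78. By any amount 44 of 83 cytosolic and 39 of 78 mitochondrial ones lay above in libraries 1 and 3, compared with 24.8% over all genes tested. In libraries 2 and 4, 29 and 16 did, compared with 40%. Lists too short to be read against the share of 9.9% were the core pluripotency factors, with 0 of 7, and polycomb repressive complex 2, with 0 of 11. The 30 imprinted genes included 23 with enough counts, of which Magel2 was set apart at 0.162, 0.894, 0.203 and 1.47 CPM.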
